A study of Caenorhabditis elegans with 2 samples.

Results

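The genes described here encode Rab and Arl small GTPases, vacuolar protein sorting (VPS) proteins and sorting nexins (SNX) of *Caenorhabditis elegans*. They were chosen by name: every protein-coding gene of the WBcel235 annotation whose name begins with rab-, arl-, vps- or snx-, with 1 rab gene left out by the rule and not analysed here. This gave 63 genes of 19973, made up of 19 rab, 6 arl, 31 vps and 7 snx genes. The rule uses names and no measured value, but it was set with earlier results of these data known. The measurement was binding of REF-2, a Zic-family DNA-binding protein with zinc fingers, by chromatin immunoprecipitation and sequencing (ChIP-seq) from whole hermaphrodites at the late embryo stage, 3 hours after synchronization by egg bleaching. Both samples came from strain OP520, which carries unc-119(tm4063) on chromosome III and the transgene wgIs520, with REF-2 joined to eGFP, and the sample description names an antibody to GFP for the precipitation, while the antibody field of the labels names ref-2. They form 1 group of 2 biological replicates, so every comparison is between genes or between replicates, with no second condition and no control sample analysed here. Whole animals were used, and the lists do not say in which cells REF-2 was bound.

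Membrane trafficking moves proteins and lipids between compartments in vesicles and tubules. Rab and Arl proteins are GTP-driven switches that mark a compartment and recruit its effectors, tethering complexes such as HOPS, CORVET, GARP and EARP hold a vesicle to its target, and ESCRT complexes bud cargo into the endosome on its way to the lysosome. Retromer and sorting nexins return cargo from endosomes, and in the worm this machinery serves yolk uptake by oocytes, cell corpse clearance and the building of polarized epithelia.

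The DNA under REF-2 summits at these genes differed from gene to gene. A summit is the base of highest signal in a peak of the authors' lists. Shown are stretches centred on 5 summits, read 5′ to 3′ on the strand of the named gene from the RefSeq sequence of WBcel235 (ce11). They stand for the strongest summits whose sequence is printed here, rab-7 and snx-13, for the longest inverted repeat, at vps-32.1, and for the GAGA repeats of vps-60 and vps-45. Capitals mark GAGAGA on either strand in vps-60 and vps-45 and both arms of the inverted repeat in vps-32.1, and the rab-7 and snx-13 stretches hold no match to the words searched. The stretches lie at chrII:11967696-11967796 (minus strand) for rab-7, chrIV:17087579-17087679 (minus strand) for snx-13, chrII:6588978-6589078 (plus strand) for vps-32.1, chrV:8606470-8606570 (minus strand) for vps-60 and chrX:974801-974901 (minus strand) for vps-45.
rab-7: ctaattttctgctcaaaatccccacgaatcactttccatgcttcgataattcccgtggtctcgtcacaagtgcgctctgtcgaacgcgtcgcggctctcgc
snx-13: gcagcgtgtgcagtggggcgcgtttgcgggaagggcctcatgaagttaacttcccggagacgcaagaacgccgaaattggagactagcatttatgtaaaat
vps-32.1: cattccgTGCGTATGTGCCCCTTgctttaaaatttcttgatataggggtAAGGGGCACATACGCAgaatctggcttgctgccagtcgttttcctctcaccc
vps-60: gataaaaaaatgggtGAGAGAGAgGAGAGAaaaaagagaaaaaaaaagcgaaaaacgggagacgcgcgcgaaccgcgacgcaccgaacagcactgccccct
vps-45: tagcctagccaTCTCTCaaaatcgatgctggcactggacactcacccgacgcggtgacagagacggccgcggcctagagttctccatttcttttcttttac

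Promoters of trafficking genes held REF-2 summits more often than promoters in general. The window searched at each gene began 1000 bp before its annotated 5′ end and closed 200 bp after it, and the optimal list is the authors' list of 2129 peaks thresholded on reproducibility between replicates. Of the 63 genes, 17 had an optimal summit in the window (27%, exact 95% interval 16.6 to 39.7), against 1257 of all 19973 protein-coding genes (6.29%). By family these were 5 of 19 rab genes, 9 of 31 vps genes, 3 of 7 snx genes and 0 of 6 arl genes. The intervals cover counting error only, and genes sharing a summit or a neighbour are not independent. In the relaxed lists, which hold 30000 peaks each and reach far weaker ones, the gap was smaller. The pooled relaxed list had a summit in 33 windows (52.4%), against 35% of all genes. Replicate 1 had one in 33 windows (52.4%), against 35.4% of all genes, and replicate 2 in 35 windows (55.6%), against 34.3%. Both replicates had one in 28 windows (44.4%, 31.9 to 57.5), against 24.9%. No summit of any of these 4 lists lay in the windows of 23 genes (36.5%), against 10833 of all genes (54.2%).

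By role, the ESCRT genes named vps- had the most optimal summits, in 6 of 11 windows (54.5%, 23.4 to 83.3). The 7 further ESCRT genes listed under other names, outside the rule, had 0, so 54.5% describes the vps- names only. Sorting nexins had one in 3 of 7 and Rab genes of early and recycling endosomes in 3 of 8, and rab-7 is the single late endosome Rab. The ER, Golgi and secretory Rabs had 1 of 9, the HOPS and CORVET tethers 1 of 8, and the GARP and EARP tethers 1 of 5. None was called among the 3 retromer genes, the 2 genes of the phosphatidylinositol 3-kinase, the 4 genes of ciliary GTPases and the 3 other Arl genes. These classes are small, and the interval of every class without a summit reaches above 50%, so no class can be said to lack binding. Some names listed for the classes were not found among the protein-coding gene names, and the classes leave them out. They were rab-2 and rab-27 (ER, Golgi and secretory Rabs), arl-2 and arl-7 (other Arl genes) and vps-32.2 (ESCRT).

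**Figure D1:**
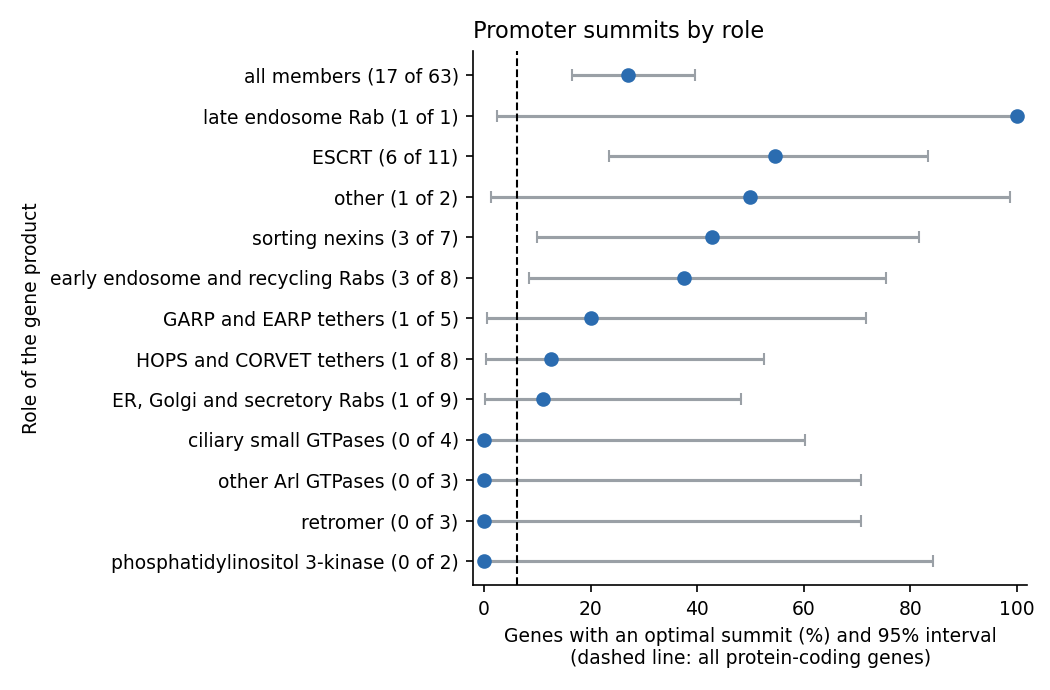
Share of genes with an optimal REF-2 summit in the promoter window (x axis, %) for each role class (y axis, with counts); points are shares, bars exact 95% intervals and the dashed line the 6.29% of all protein-coding genes. The point for ESCRT genes named vps- stands at 54.5%, with an interval from 23.4% that lies above the line. Intervals of the sorting nexins (from 9.9%) and of the early endosome and recycling Rabs (from 8.52%) also lie above it. At 0 stand 4 classes with wide intervals.

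Among the Rab GTPases the strongest summit was that of rab-7, which drives fusion of late endosomes and phagosomes with lysosomes. It lay on chromosome II at 11967746, 815 bp upstream of the 5′ end. The signal was 613 in the pooled list (rank 15 of 30000), 327 in replicate 1 and 289 in replicate 2, so it stood near the top of both replicate lists, at ranks 11 and 22. The rab-7 5′ end, at 11966931, lies inside the gene W03C9.5, whose own 5′ end is nearer to the summit (202 bp), and the window of mex-1 also held it. The summit therefore cannot be assigned to rab-7 rather than to its neighbours from these lists.

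Early and recycling endosome Rabs had weaker summits, from 380 to 704 bp upstream. At rab-11.1, which acts on recycling endosomes and in apical secretion, the summit lay on chromosome I at 110749, 692 bp upstream, with a signal of 214 pooled, 88.6 in replicate 1 and 122 in replicate 2. The ribosomal protein gene rpl-7 has the nearer 5′ end (289 bp), and 2 genes of noncoding RNA lie within 200 bp. At rab-5, the switch for early endosome fusion, it lay on chromosome I at 9307738, 704 bp upstream, with 151 pooled, 74.6 in replicate 1 and 78.3 in replicate 2. Here the replicates were close and rab-5 had the nearest 5′ end, although nmat-2 shares the summit in its window. At rab-14, a GTPase of endosomes and phagosome maturation, the summit lay on chromosome X at 15607015, 380 bp upstream, with 123 pooled, 49.97 in replicate 1 and 63.9 in replicate 2. Its window shares the summit with that of nipi-3. Below the list the strongest Rab was rab-8, which acts in recycling and polarized transport, with 67.9 pooled, 32.7 in replicate 1 and 41.2 in replicate 2, at -563 bp. By contrast rab-10, needed for recycling from basolateral endosomes, had no summit of any list in its window. The nearest optimal summit stood at -1157 bp, outside it. This gene was called with windows of 2000 bp, when any base of the peak counted, and by nearest 5′ end, so its absence depends on the window.

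Of the 9 ER, Golgi and secretory Rabs found by name, rab-6.2 alone reached the optimal list. Its summit lay on chromosome X at 17222099, 376 bp upstream. The names rab-2 and rab-27, also listed for this class, were not found and those genes were not examined. RAB-6.2 acts in transport at the Golgi. Its signal was 108 pooled (rank 1999), 64.6 in replicate 1 and 37.5 in replicate 2, close to the lowest pooled signal of the list, 105.5. The 2 replicates ranked it 1256 and 8597. No other Rab of this class reached the list. All of the ciliary GTPase genes lay below the list too: the highest, arl-13, whose product sits in the ciliary membrane, had 44.1 pooled and 36.3 in replicate 2, with no summit in replicate 1. Of the other Arl genes the highest was arl-8, which acts in lysosome positioning and axonal transport, with 43.6 pooled and 28.2 in replicate 2, again with none in replicate 1. These Arl summits ranked 22118 and 22672 of 30000 in the pooled list, so each is a weak peak seen in 1 replicate.

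Among the vps- genes, the ESCRT machinery had summits at ESCRT-II, at ESCRT-III and at its ATPase. Of ESCRT-I (vps-28 and vps-37) 0 of 2 genes were called, of ESCRT-II (vps-22, vps-25 and vps-36) 2 of 3, of ESCRT-III (vps-2, vps-20, vps-24, vps-32.1 and vps-60) 3 of 5, and the ATPase gene vps-4 was called too. The highest was vps-32.1, which encodes the subunit that polymerizes into the ESCRT-III filament, with a summit on chromosome II at 6589028, 680 bp upstream. Its signal was 213 pooled, 108 in replicate 1 and 107 in replicate 2. The replicates gave nearly the same value, but icd-1 has the nearer 5′ end (373 bp) and 2 noncoding genes lie within 200 bp. At vps-60, an ESCRT-III-related gene, the summit lay on chromosome V at 8606520, 392 bp upstream, with 192 pooled, 96.9 in replicate 1 and 96.9 in replicate 2. It lay in no other gene's window and was present under every alternative tried.

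The ESCRT-III gene vps-20 was the exception among the 17. Its summit, on chromosome I at 636837, was the only member summit inside an exon, 33 bp downstream of the 5′ end, and it also lay in the window of eif-4A3. The signal was 168 pooled and 96.1 in replicate 2, at a summit 20 bp away. Replicate 1 had no summit in the window. The nearest peak of replicate 1 was 191 bp away, with a signal of 23.6 (rank 18659), and it was the only one within 1000 bp. All of the other 16 genes had a summit in the window in both replicates.

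Both called ESCRT-II genes had summits far upstream. At vps-22 it lay on chromosome III at 4963115, 622 bp upstream, with 142 pooled, 74.6 in replicate 1 and 69.4 in replicate 2. The 5′ end of vps-22 lies inside C27F2.9, which has the nearer 5′ end (71 bp). At vps-36 it lay on chromosome V at 10961528, 859 bp upstream, with 120 pooled, 49.9 in replicate 1 and 70.5 in replicate 2. The gene of the ATPase that disassembles the filament, vps-4, had its summit on chromosome I at 1067145, 246 bp upstream, with 117 pooled, 70.8 in replicate 1 and 42.6 in replicate 2. It was thus stronger in replicate 1, the reverse of vps-36. Of the uncalled ESCRT genes, vps-24 (ESCRT-III) had the strongest summit below the list among the 63 rab, arl, vps and snx genes. It had 79.4 pooled, 35 in replicate 1 and 41.5 in replicate 2, at 90 bp downstream of the 5′ end.

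Each set of tethering genes had 1 called member. In the GARP and EARP complexes it was vps-51, a shared subunit, and its summit was the strongest at any trafficking gene. It lay on chromosome I at 5807475, 184 bp upstream of vps-51 and 234 bp upstream of the divergent gene lin-35, with 757 pooled (rank 8), 342 in replicate 1 and 416 in replicate 2. In the HOPS and CORVET set it was vps-39, a HOPS subunit, the only trafficking gene with more than 1 optimal summit in its promoter window. The stronger lay on chromosome V at 14038511, 133 bp upstream, with 148 pooled, 70.9 in replicate 1 and 76.7 in replicate 2. The weaker lay at 14038736, 358 bp upstream, with 115 pooled, 53.8 in replicate 1 and 62.3 in replicate 2. Their peaks overlap. Neither summit is in another gene's window, and a pseudogene lies within 200 bp of the weaker. The subunit gene vps-33.1 followed below the list with 69.2 pooled, 44.7 in replicate 1 and 26.6 in replicate 2, at -158 bp. The gene vps-45, for a Sec1/Munc18 protein that works with SNAREs at early endosomes, had a summit on chromosome X at 974851, 3 bp upstream of its 5′ end, with 153 pooled, 72.8 in replicate 1 and 82.1 in replicate 2. That was the closest of all to an annotated 5′ end, and 1 piRNA gene lies within 200 bp.

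Of the sorting nexin and retromer genes, only sorting nexins were called. At snx-13, a sorting nexin with a regulator of G protein signalling domain in its mammalian relatives, the summit lay on chromosome IV at 17087629, 191 bp upstream, with 434 pooled (rank 52), 245 in replicate 1 and 203 in replicate 2. It lay in the window of snr-1 as well, but snx-13 had the nearer 5′ end. At snx-3, which acts with retromer in recycling the Wnt-secretion factor MIG-14, it lay on chromosome I at 9064767, 364 bp upstream, with 141 pooled, 65.2 in replicate 1 and 75.5 in replicate 2. The 5′ end of rad-54.L was nearer (312 bp). At snx-1, another retromer partner, it lay on chromosome X at 1128717, 269 bp upstream, with 130 pooled, 42.4 in replicate 1 and 93.1 in replicate 2. The replicates differed most here among summits matched within 100 bp without centring. Retromer itself, vps-26, vps-29 and vps-35, had no optimal summit: vps-35, the core subunit, had 63.6 pooled, 37 in replicate 1 and 27.4 in replicate 2 at 75 bp downstream of its 5′ end. The lipid kinase gene vps-34 had no summit of any list in its window, and vps-15, its regulatory subunit, had one in replicate 2 alone, of 27.2.

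**Figure D2:**
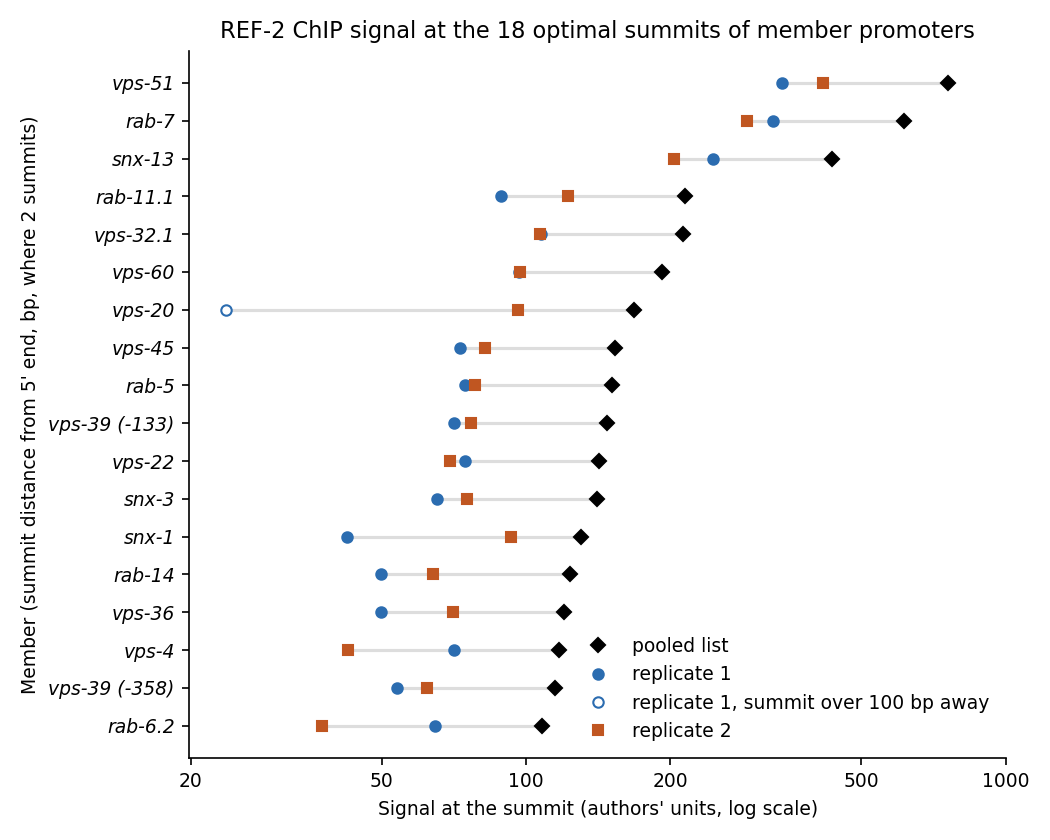
Signal (x axis, authors' units, log scale) at the 18 optimal summits in trafficking gene promoters (y axis, ordered by pooled signal; diamonds pooled list, circles replicate 1, squares replicate 2). The summits of vps-51, rab-7 and snx-13 stand apart at 434 to 757 pooled, and the open circle of vps-20 is a replicate 1 peak 191 bp from the pooled summit.

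As a set, with the top 3 included, the 18 summits were ordinary in strength. The median pooled signal of the 18 was 149.5, against 154.0 for the 972 optimal summits in promoter windows of all genes. After the top 3, the summits of rab-11.1, vps-32.1, vps-60 and vps-20 exceeded 154.0. All others, from vps-45 (153) down to rab-6.2 (108), fell under it. Of the 18, 10 (55.6%) were in the stronger part of the optimal list by rank, to rank 1064, against 57.6% of the promoter summits. The 3 in the top 100 were those of vps-51, rab-7 and snx-13, beside 69 of the 972. A further 16 genes had a pooled summit below the optimal list, with signals of 39.8 to 79.4 and a median of 54, and 12 of these had one in both replicates. In 7 more genes a summit lay in the window in a replicate list only.

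Replicates ranked the member summits much as they ranked other optimal summits. Signal in replicate 2 over replicate 1 had a median log2 ratio of 0.18 over the 2112 optimal summits matched within 200 bp. Relative to that median, 1 of the 18 member summits (5.56%) differed by more than 2-fold, against 78 of 2112 (3.69%), and it was that of vps-20, whose replicate 1 match is a separate weak peak. Next came rab-6.2 at -0.97 and vps-4 at -0.92, both higher in replicate 1, and snx-1 at 0.95, higher in replicate 2, on the centred log2 scale. Across the 18 summits Pearson's r of log2 signal was 0.78 and Spearman's rho 0.65, against 0.73 and 0.65 over the 2112. Those points share 2 libraries and were selected on pooled signal, so the values are a description. In all, 12 of the 18 (66.7%) were among the 2129 strongest peaks of both replicates, against 1444 of 2112 (68.4%).

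**Figure D3:**
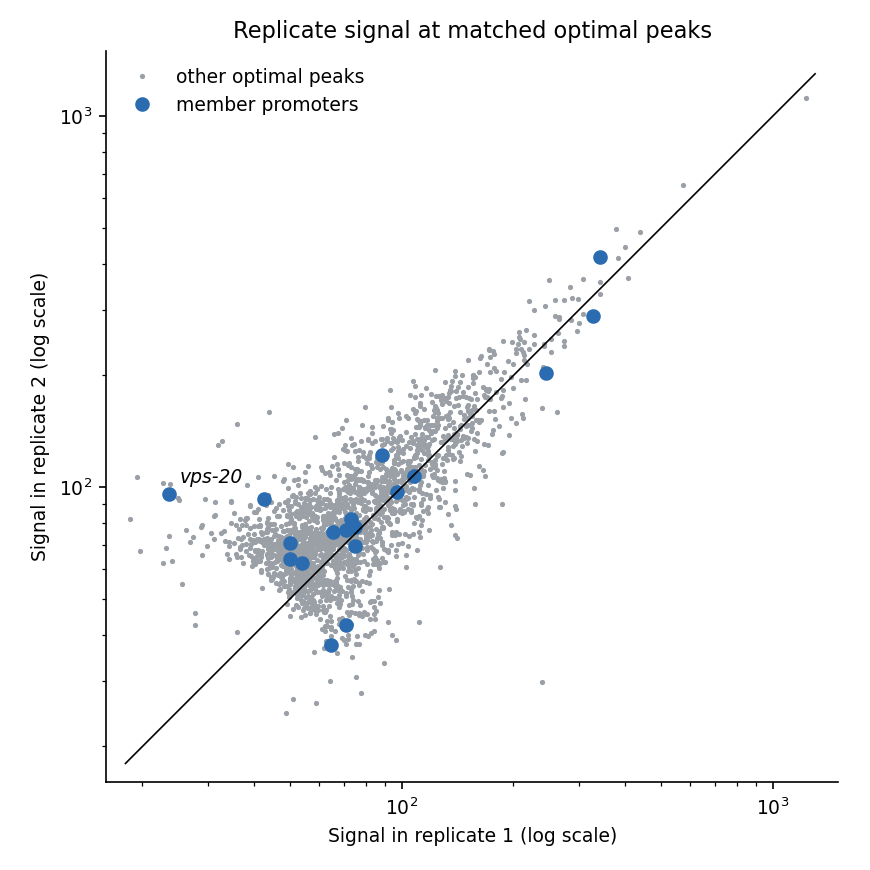
Signal in replicate 1 (x axis) and replicate 2 (y axis), both in the authors' units on log scales, at optimal summits matched in both replicates; large points are the 18 trafficking gene summits, small points the others and the line marks equal signal. Most large points lie within the cloud near the line, and vps-20 stands at 23.6 in replicate 1 and 96.1 in replicate 2.

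Summits at trafficking genes lay mostly upstream of the 5′ end, as promoter summits did in general, and 10 of 18 also lay in another gene's window. Of the 18, 17 were upstream and 17 were intergenic, and 1, that of vps-20, was in an exon. Their median position was -370 bp, against -256 bp over all promoter summits counted per gene. The upper quartile of the latter was -134 bp, so most of them were upstream too, in a window that reaches farther upstream than downstream. The window of another gene held 10 of the 18 (55.6%), against 311 of 972 (32.0%). These shares are not alike. The 972 count each summit once, although they make 1305 pairs of summit and gene. The 18 were reached through gene windows, so a summit in more than 1 window was more likely to be among them. The gap therefore cannot be read as a trait of trafficking genes. The trafficking gene had the nearest 5′ end for 13 of 18. The upstream, intergenic and nearest 5′ end counts were not made over all promoter summits, so they are a description only. A gene of noncoding RNA or a pseudogene lay within 200 bp of 4 of the 18 (22.2%), against 208 of 972 (21.4%).

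**Figure D4:**
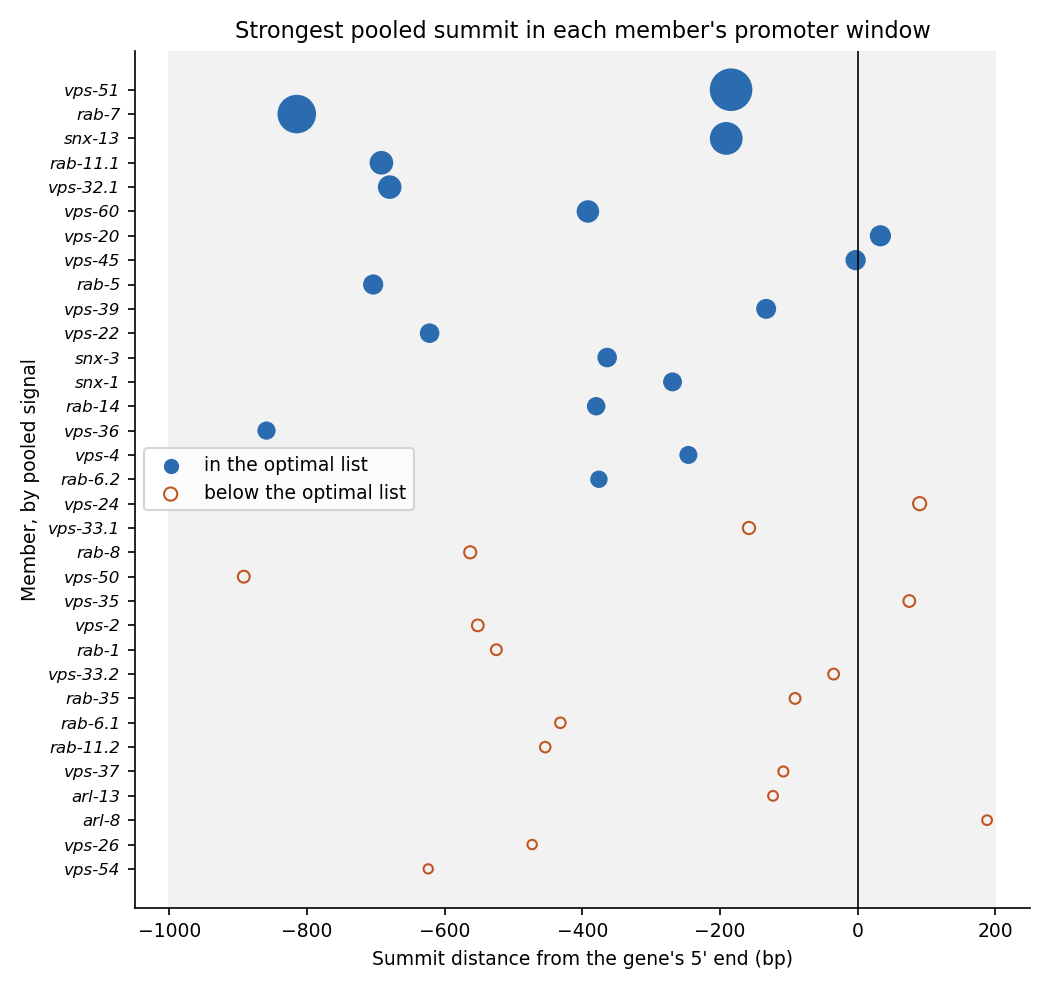
Position of the strongest pooled summit (x axis, bp from the 5′ end) in each of the 33 trafficking gene windows that held one (y axis, ordered by signal); filled points are in the optimal list, open points below it, point area grows with signal and shading marks the window. Optimal summits spread from -859 bp at vps-36 to 33 bp at vps-20, and those below the list cover the same range.

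The genes with and without a summit differed in their upstream neighbours, a split made after the data were seen. The nearest upstream gene was divergent and more than 1000 bp away at 11 of the 63 genes, and 7 of these were called (63.6%), against 6.44% of all genes so placed. With a divergent gene within 1000 bp, 5 of 16 were called (31.3%), against 14.3%. Where the 5′ end lay inside another gene, 2 of 7 were called (28.6%, against 4.39%), and with a gene on the same strand more than 500 bp upstream, 3 of 12 (25%, against 3.82%). In tight runs, with a gene on the same strand within 500 bp upstream, 0 of 17 were called, against 3.65% of 3534 genes. With 17 genes, a share of 3.65% cannot be told from 0. Operon membership was not used here.

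All of the retromer genes were in tight runs, as were 4 of 8 HOPS and CORVET genes and 2 of 3 other Arl genes, while 1 of 11 ESCRT genes was. Role and gene arrangement therefore cannot be told apart for retromer. Taking the first gene of the run in place of the member, 2 of the 17 (11.8%) had an optimal summit in that gene's window, against 12.8% of all genes in tight runs. These were vps-54, through erh-1 with a signal of 119.5, and vps-41, through Y34B4A.2 with 129.3. Outside tight runs, 17 of 46 trafficking genes were called (37%), against 6.86% of genes. The median distance to the upstream gene was 980 bp at called and 381.5 bp at uncalled trafficking genes. A 5′ end inside another gene was counted as a distance of 0. Over all genes the called ones had the shorter distance, with 731 bp at the 1257 called genes against 936 bp for all 19973. The 19973 include the called genes, unlike the uncalled trafficking genes above.

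**Figure D5:**
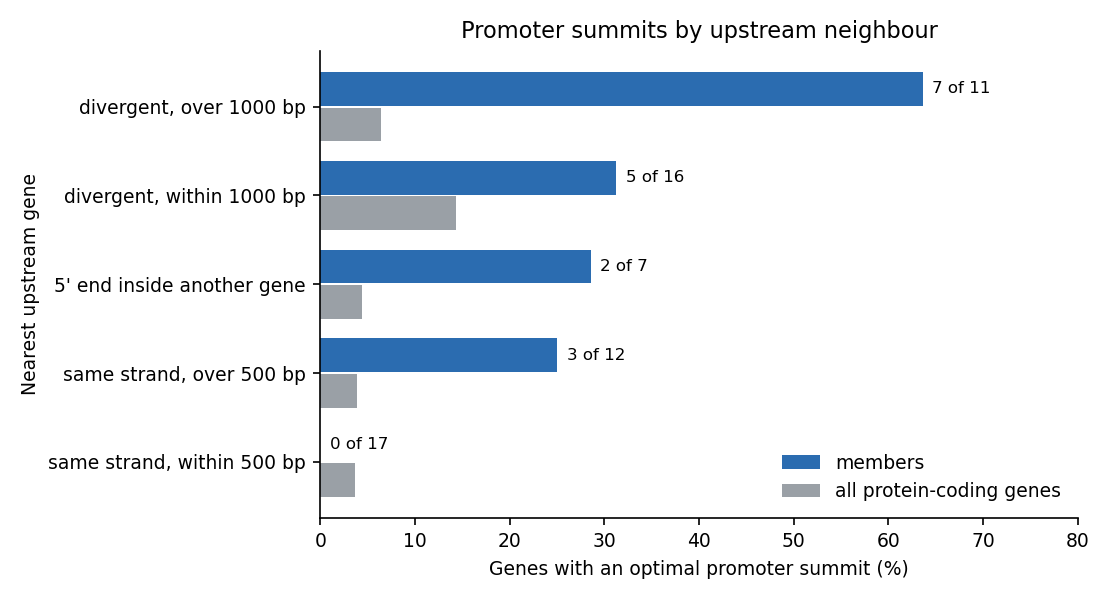
Share of genes with an optimal summit (x axis, %) by the nearest upstream gene (y axis), for trafficking genes with their counts and for all protein-coding genes. Trafficking genes stand above all genes in 4 arrangements, most with a divergent gene over 1000 bp away (63.6% against 6.44%), and at 0 of 17 in tight runs.

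Six-letter and seven-letter words were searched on both strands within 100 bp of the summits. The Zic-type core, CAGCAGG or CAGCGGG, was at 0 of 18 (exact 95% upper bound 18.5%), against 6.48% of the 972 promoter summits and 1.80% of windows 1000 bp to either side. GAGAGA was at 3 of 18 (16.7%), those of vps-51, vps-60 and vps-45, against 37.4% of promoter summits and 11.3% of their flanks. In vps-60 its overlapping and neighbouring copies form the purine run printed in capitals. Single summits held the E-box CACGTG (rab-7, 100 bp from the summit and so outside the printed stretch), the GATA word TGATAA (vps-60) and the GC box GGGCGG (vps-36), against 3.81%, 5.86% and 13.2% of promoter summits. The tRNA box B word GGTTCGA was at 0 of 18, against 3.19%. With 18 summits, shares of this size are not distinguishable from those of promoter summits in general where the interval holds both, as it does for the Zic-type core and GAGAGA (3.58 to 41.4). Over whole promoter windows of 1201 bp, the Zic-type core was in 2 of 63 trafficking genes (3.17%) and 9.03% of all genes. The GC content of the same summit windows had a median of 45.8% in both groups.

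Other trafficking machinery was counted from 11 lists. Of 102 such genes found in the annotation, 16 had an optimal promoter summit (15.7%, 9.24 to 24), against 6.29% of all genes, and 42 had a summit in both replicates (41.2%), against 24.9% of all genes. Clathrin and adaptor genes had 6 of 15, led by epn-1, an epsin, with 322 pooled and apa-2, an AP2 subunit, with 235. The exocyst had 3 of 8, led by sec-15 with 464 and sec-3 with 171. COPII, the coat for export from the ER, had 2 of 8, sec-12 with 176 and the GTPase sar-1 with 136. SNARE and fusion genes had 2 of 16, nsf-1, the ATPase that takes SNARE complexes apart, with 372 and memb-1 with 117. COPI had 1 of 7 (copz-1, 195) and the COG complex 1 of 7 (cogc-2, 210). Of 4 Arf GTPase names listed, only arf-6, for an Arf GTPase of the plasma membrane, was found in the annotation. It was called, with 106. Of the genes named here, sec-15, nsf-1, copz-1, cogc-2 and arf-6 share the summit with another gene's window. A gene of noncoding RNA or a pseudogene lies within 200 bp of those of sec-15 and epn-1. These summits cannot be assigned to 1 gene from these lists. None of the 19 Rab regulators, the 10 TRAPP genes, the 7 further ESCRT genes and the 5 recycling genes listed was called. Pooled signal at these called genes ranged from 106 to 464, and at the called rab, vps and snx genes from 108 to 757.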

How the data were processed

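Of the deposited peak lists, 4 on ce11 were used: the optimal list, the pooled relaxed list and a relaxed list for each of 2 replicates. Signal per peak is the authors' deposited value, with no stated normalization between lists. It was ranked within a list. It was also compared between the replicate lists, as deposited and relative to the median log2 ratio. Such comparisons of deposited values between replicates are a description only. The −log10 q-value per peak, also deposited by the authors, was not used in any result. The peak caller, the aligner, their versions and the use of a control are not given in the sources used here. No read counts were analysed, so depth is unknown. The labels do not say whether replicates were separate cultures.

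Gene models came from Ensembl release 115 and sequence from RefSeq, both WBcel235, with 1-based coordinates. Windows and summits were joined in Python 3.11.15 with numpy 2.4.6, pandas 2.3.3 and scipy 1.17.1 (Clopper-Pearson 95% intervals), and the joining was tested on simulated peaks. Peaks were matched between lists within 200 bp. No p-value was computed, since there is 1 group. Named were the called genes, the highest gene of each role class without a call, the 3 highest below the optimal list, rab-5, rab-7, rab-10, rab-11.1, vps-34 and vps-35, and up to 2 genes per other list. Genes named beside these share a window or run with them or complete a class. Members and lists were chosen with earlier results of these data known.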

Additional observations from a re-analysis of the deposited data

How the results depend on the processing

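The count of 17 trafficking genes with an optimal summit was 11 (17.5%, against 4.86% of all genes) in windows of 500 bp upstream and 10 (15.9%, against 3.8%) when only optimal peaks to rank 1064 counted. Without replicate 1 or 2 it was 13 to 15, the lower without replicate 2. Over the other alternatives it was 14 to 20. Over all alternatives so far the share stood at 3.07 to 4.39 times that of all genes, against 4.29. Similar counts did not always mean the same genes. By nearest 5′ end within 5000 bp there were 16, of which 12 were among the 17 and 4 were added. Lost there were rab-7, rab-11.1, snx-3, vps-22 and vps-32.1. Of the 17 genes, 4 (snx-13, vps-39, vps-51 and vps-60) were called in every alternative and 13 were lost in at least 1. Another 6 genes, uncalled in the main setting, were gained in at least 1: rab-6.1, rab-10, rab-19, snx-17, vps-2 and vps-25. Windows of 500 bp lost rab-5, rab-7, rab-11.1, vps-22, vps-32.1 and vps-36. Without replicate 1, rab-6.2 and vps-4 were lost, and without replicate 2, vps-20, rab-14, snx-1 and vps-36. The ESCRT count ranged from 3 to 7. The count of 28 of 63 genes with a summit in both replicates was 18 of 63 with windows of 500 bp upstream. Over all genes it was then 3373 of 19973 (16.9%). In the strongest 10000 peaks of each list it was 19 of 63, against 2297 of 19973 (11.5%). With 2000 bp it was 38 of 63, against 7691 of 19973 (38.5%). The median signal of 149.5 was 71.9 to 80.2 on the scale of a single replicate. The count of 1 summit with replicates over 2-fold apart was 0 when summits matched within 100 bp and 2 without centring. The Zic-type count stayed 0 at 50 and 250 bp, and the other trafficking count of 16 ranged from 15 to 20. Leaving out tight runs, an alternative chosen after seeing the data, could not change the count of 17, since none of the genes left out was called, and it says nothing about stability; the share became 37%, against 6.86% of genes. No paired analysis was possible because the labels give 1 group. Limits are 2 replicates, unknown depth, whole animals and no control sample analysed here.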

Other observations

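Optimal summits also lay inside 3 trafficking genes outside the promoter window. At vps-25, the ESCRT-II gene not called in the main setting, one lay in an intron 4436 bp downstream of the 5′ end. Its signal was 282.5 pooled (rank 199), 157 in replicate 1 and 125 in replicate 2, and it was the only optimal summit inside this gene. With windows at any annotated transcript start vps-25 was called, and the ESCRT count was 7 in place of 6. The lack of a promoter summit at vps-25 therefore depends on the 5′ end used. At snx-17, a sorting nexin, one lay in an intron on chromosome X at 13121258, 1033 bp downstream, with 174.5 pooled and 86.7 in replicate 2, with no match in replicate 1 and with a tRNA gene and a noncoding RNA gene within 200 bp. At vps-4 a further one lay in an exon 4585 bp downstream, with 116.7 pooled, 56.7 in replicate 1 and 72.0 in replicate 2, in the promoter window of npr-23.

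The vps-32.1 summit sits in an inverted repeat with arms of 16 bp, TGCGTATGTGCCCCTT and AAGGGGCACATACGCA, 26 bp apart. The search was made after the sequence was seen. Arms of at least 16 bp were found within 50 bp of 3 of 2129 optimal summits (0.141%). Arms of at least 8 bp were at 5 of 18 trafficking gene summits (27.8%) and 112 of 972 promoter summits (11.5%).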
